A study of Mus musculus with 6 samples.

Results

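The transforming growth factor-β (TGF-β) and activin axis was followed through the transcripts of 10 genes, a set given by gene name, in primary mouse renal fibroblasts. They were 5 ligand genes (Tgfb1, Tgfb2, Tgfb3, Inhba and Inhbb), 3 receptor genes (Tgfbr1, Tgfbr2 and Tgfbr3) and 2 genes of matrix proteins tied to the pathway (Tgfbi and Ltbp2), and all 10 were present among the 34745 genes of the expression table. Bulk RNA sequencing covered 6 libraries, 3 of fibroblasts kept alone and 3 of fibroblasts cocultured with Th17 cells, the IL-17-producing class of helper T cells. Both groups were wild type and came from digested kidneys of mice whose age and strain the labels do not give. The study's methods name Balb/c mice for the animal model and give no strain in the fibroblast isolation. The fibroblasts attached for 6 h, and induced Th17 cells were then placed for 24 h in an insert with 0.4 μm pores above them, so that soluble factors could pass while the cell layers stayed apart. Only the lower chamber was collected. Per the study's methods, the Th17 cells had been raised from CD4+ T cells on anti-CD3 and anti-CD28 with IL-1β, IL-6, IL-23 and an antibody to IFN-γ, and the recipe listed no TGF-β. Whether the lone fibroblasts had an empty insert is not stated, nor how long after attachment they were collected. T cells, their carried-over medium, the insert itself and any unequal culture time therefore cannot be told apart as the source of a difference. The sources do not say whether libraries within a group were separate mice or cultures, and the p-values below measure the spread between these libraries only.

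TGF-β ligands are secreted in a latent form, bound to their own propeptide and to latent TGF-β binding proteins in the matrix, and act after integrins, thrombospondin or proteases free them. The active ligand binds TGFBR2, which phosphorylates TGFBR1, and TGFBR1 in turn phosphorylates SMAD2 and SMAD3, which enter the nucleus with SMAD4. Activins are dimers of inhibin β subunits, encoded by Inhba and Inhbb, and reach the same SMAD proteins through ACVR2A or ACVR2B and ACVR1B, while follistatins trap them outside the cell. In the kidney the axis is best known for driving fibroblasts towards matrix-producing myofibroblasts.

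Of the 10 genes, Tgfb2 fell 3.61-fold and Tgfb3 fell 2.30-fold in coculture, Tgfbr3 fell 1.21-fold, and Inhbb rose 1.99-fold from a low level. Tgfb1, Inhba, Tgfbr1, Tgfbr2, Tgfbi and Ltbp2 did not pass the test. Counts were compared by the quasi-likelihood test of edgeR, with p-values adjusted after Benjamini and Hochberg over the 13088 genes that had enough counts, and a gene was called at an adjusted p below 0.05. Across those 13088 genes 37.1% were called, 17.1% higher and 20.0% lower, so 4 called of 10, with 1 higher and 3 lower, was a share near the background and is no result about the axis as a set. With a 2-fold change required as well, 2 of the 10 genes were called, beside 11.6% of all genes tested: 0 were higher (3.87% of all genes) and 2 lower (7.78%). The median log2 fold change over the 10 genes was -0.10, beside 0.00 over all genes tested. The libraries held 12050529 to 13209581 counts, a floor of 3 counts corresponded to 0.223 to 0.254 CPM (the usual unit of counts scaled by the normalised library total), and the cocultured replicate 3 lay farthest from its group (a chi-square per gene of 13.2 and 14.3 against the other cocultured libraries, beside 6.07 to 8.07 for every other pair within a group). Calls that were lost without it are named beside the gene.

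**Figure D1:**
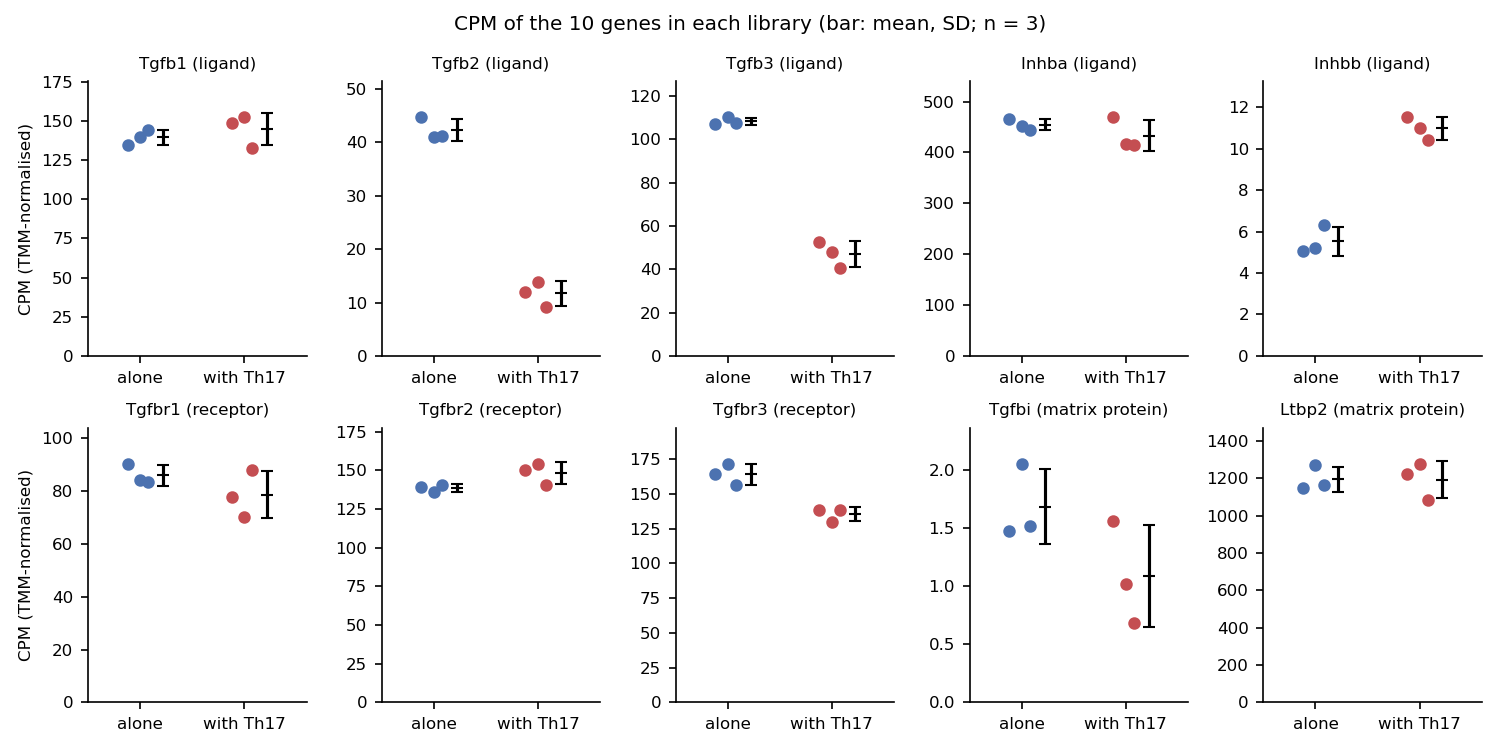
Normalised expression of the 10 genes (y axis, CPM scaled by trimmed mean of M values, TMM; each panel has its own scale from 0) in the fibroblasts alone (blue) and with Th17 cells (red). Points are the 3 libraries of a group and the black mark beside them is the mean with its SD; the groups stand clear of each other for Tgfb2, Tgfb3, Inhbb and Tgfbr3, and by a hair for Tgfbr2.

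Tgfb2 (ENSMUSG00000039239, chr1:186622792-186705989, minus strand, GRCm38) encodes the TGF-β2 ligand. Its normalised level was 44.7, 41.1 and 41.2 CPM in the 3 libraries alone and 12.04, 13.9 and 9.20 CPM in the 3 cocultured ones. The highest cocultured library lay far below the lowest library alone. The mean went from 42.3 ± 2.04 to 11.7 ± 2.37 CPM (SD, n = 3), a log2 fold change of -1.85 (SE 0.14, 95% interval -2.17 to -1.54, adjusted p = 9.76e-06). In raw reads, 488 to 576 counts per library alone stood against 121 to 177 in coculture, so counting error was small beside the difference.

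Tgfb3 (ENSMUSG00000021253, chr12:86056744-86079041, minus strand) encodes TGF-β3, which shares the latent form and the receptors of the other TGF-βs. It measured 107.2, 110.2 and 107.6 CPM alone and 52.6, 48.1 and 40.4 CPM with Th17 cells. The cocultured libraries were all at about the middle of the lone level or below it, and they were more spread: the coefficient of variation was 1.48% alone and 13.2% in coculture. The log2 fold change was -1.20 (SE 0.10, 95% interval -1.42 to -0.98, adjusted p = 1.4e-05). Antisense genes share exon sequence with both falling ligands in the annotation, Gm29491 with Tgfb2 and Gm37804 with Tgfb3, and both were listed with 0 counts in every library; a further one at Tgfb3, Gm48008, was not analysed here.

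Tgfb1 (ENSMUSG00000002603, chr7:25687002-25705077, plus strand) encodes TGF-β1, the ligand most often tied to renal scarring. It measured 134.7, 139.7 and 144.1 CPM alone and 148.8, 152.3 and 132.9 CPM in coculture, and the groups overlapped. The log2 fold change of 0.05 (SE 0.07, adjusted p = 0.596) had a 95% interval of -0.11 to 0.21, which leaves out a change of the size seen for either of the other TGF-β ligands. In bulk libraries of this kind, a loss of cells that make a transcript and less of it per cell cannot be told apart, for these genes and those that follow.

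The promoters of 2 of these ligands and of both activin subunits are shown because they carry the genes at the ends of the observed range beside the ones that did not pass, Tgfb2 (lower) with Tgfb1, and Inhbb (higher) with Inhba. Each run is the 250 bases before the annotated start, 5′ to 3′ on the gene's strand, from RefSeq on GRCm38.p6, where 8 of the 10 genes had an entry (Tgfb3 and Tgfbr3 are named only). Capitals mark a TATA box (TATAAA) or a GC box (GGGCGG, or CCGCCC on the other strand). The regions are chr7:25686752-25687001 (plus strand) for Tgfb1, chr1:186705990-186706239 (minus strand) for Tgfb2, chr13:16011601-16011850 (plus strand) for Inhba and chr1:119422249-119422498 (minus strand) for Inhbb.
Tgfb1 promoter: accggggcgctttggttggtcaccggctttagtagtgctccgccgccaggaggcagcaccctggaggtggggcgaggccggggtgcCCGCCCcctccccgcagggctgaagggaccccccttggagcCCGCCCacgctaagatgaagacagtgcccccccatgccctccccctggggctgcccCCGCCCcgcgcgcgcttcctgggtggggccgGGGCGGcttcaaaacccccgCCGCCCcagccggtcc
Tgfb2 promoter: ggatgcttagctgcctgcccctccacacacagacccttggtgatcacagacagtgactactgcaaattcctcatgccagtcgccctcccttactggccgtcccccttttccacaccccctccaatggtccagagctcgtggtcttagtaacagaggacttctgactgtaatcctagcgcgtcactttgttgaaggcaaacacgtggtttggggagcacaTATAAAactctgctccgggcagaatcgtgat
Inhba promoter: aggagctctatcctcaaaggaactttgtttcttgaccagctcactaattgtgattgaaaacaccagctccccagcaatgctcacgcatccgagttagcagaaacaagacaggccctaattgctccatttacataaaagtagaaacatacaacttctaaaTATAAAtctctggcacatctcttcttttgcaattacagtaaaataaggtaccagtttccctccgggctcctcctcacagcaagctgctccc
Inhbb promoter: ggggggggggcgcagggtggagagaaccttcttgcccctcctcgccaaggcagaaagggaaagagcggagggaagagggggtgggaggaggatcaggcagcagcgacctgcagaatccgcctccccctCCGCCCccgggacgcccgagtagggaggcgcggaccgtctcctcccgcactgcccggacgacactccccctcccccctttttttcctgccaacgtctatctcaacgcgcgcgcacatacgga

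Tgfb1 and Inhbb had GC-rich sequence (75.2% and 68.0% G or C, beside a median of 52.4% over 32851 mouse promoters) with 5 GC boxes and 1 GC box. Tgfb2 (53.6% G or C) had a TATA box 31 bases before the start, and Inhba (43.2%) had one 91 bases before it. Both strands were searched for each motif. TATAAA was present in 12.4% of all promoters of this length and GGGCGG in 32.7%. The other motifs searched were a cyclic AMP response element (TGACGTCA, 1.55% of all promoters), an AP-1 site (TGANTCA, 6.75%), a TEAD site (GGAATG, 12.6%) and a palindromic SMAD site (GTCTAGAC, 0.167%), and none of these was found in the 4 windows. A match is a description of letters and not of binding.

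Because 1 of the 3 TGF-β ligand transcripts did not pass the test while the others fell, the makeup of the TGF-β ligand pool was compared on the deposited FPKM, fragment counts divided by library size and gene length, which allows genes to be set side by side. The summed FPKM of the 3 ligands was 58.7, 60.2 and 60.5 alone and 43.9, 43.1 and 37.3 in coculture (means 59.8 ± 0.922 and 41.4 ± 3.63, SD). Tgfb3 held the largest share alone, with 52.6%, 52.9% and 51.6% of the sum, and 36.2%, 33.5% and 32.9% in coculture. Tgfb1 moved the other way in share, from 39.2%, 39.8% and 41.0% to 60.7%, 62.9% and 64.3%. Tgfb2 went from 8.17%, 7.34% and 7.37% to 3.09%, 3.605% and 2.80%. On this scale Tgfb3 led in every library alone and Tgfb1 in every cocultured one.

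The differences between group means were 22.6 percentage points for Tgfb1, -4.47 for Tgfb2 and -18.2 for Tgfb3. In an exact two-sided permutation test over the libraries each gave p = 0.1, the smallest that 3 against 3 can give, so this test alone could not reach 0.05. Shares of one sum are bound to move against each other, and the gain of Tgfb1 is in share and not in level: its own FPKM was 23.9 ± 0.882 alone and 25.9 ± 1.71 in coculture. The per-library ratio of Tgfb1 to Tgfb3 FPKM was 0.763 ± 0.0268 alone and 1.83 ± 0.142 in coculture, and that of Tgfb1 to Tgfb2 was 5.26 ± 0.405 and 20.0 ± 2.79. Computed from raw counts, with no division by length, the differences in share were 23.1, -8.87 and -14.3 points. By counts Tgfb1 led in the libraries alone as well (47.0%, 48.0% and 49.2%, against 37.4%, 37.9% and 36.7% for Tgfb3), so the change of leader appears only after division by length. The lengths implied by the deposited counts and FPKM were 5709 bases for Tgfb1, 9087 for Tgfb2 and 3384 for Tgfb3. Whether these lengths match the transcripts made by the cells was not tested, so the lead of Tgfb3 alone depends on them.

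**Figure D2:**
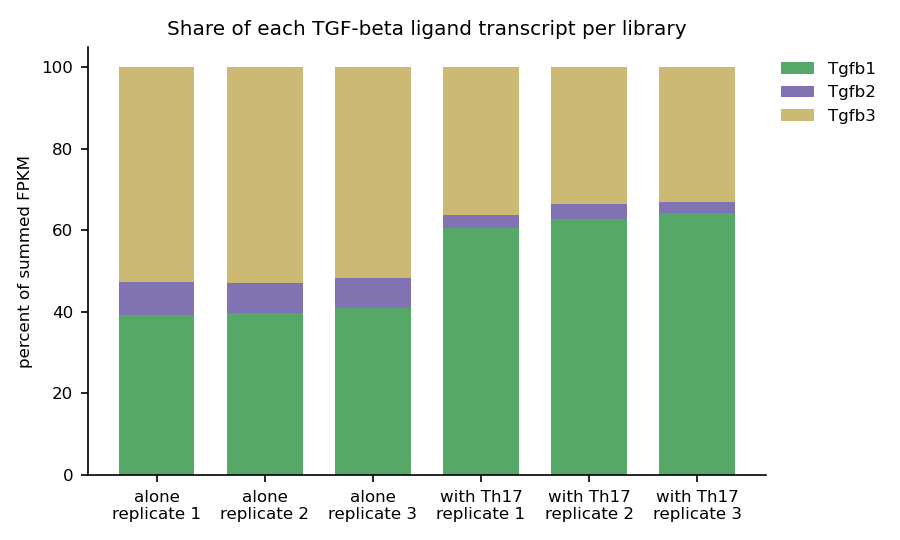
Stacked bars of the share of Tgfb1, Tgfb2 and Tgfb3 in their summed FPKM (y axis, percent), 1 bar per library. Tgfb1 took 39.2% to 41.0% in the 3 libraries alone and 60.7% to 64.3% in the 3 cocultured ones, and Tgfb3 and Tgfb2 took smaller shares there.

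The activin subunits differed in both level and response. Inhba (ENSMUSG00000041324, chr13:16011851-16027211, plus strand), the βA subunit of activin A, measured 465.7, 452.5 and 444.2 CPM alone and 469.1, 416.5 and 413.7 CPM in coculture. The groups overlapped through the cocultured replicate 1, and the log2 fold change of -0.07 (SE 0.07, 95% interval -0.21 to 0.08, adjusted p = 0.447) did not pass the test. Inhbb (ENSMUSG00000037035, chr1:119415465-119422248, minus strand), the βB subunit of activin B, measured 5.04, 5.21 and 6.34 CPM alone and 11.5, 11.0 and 10.4 CPM with Th17 cells. Each cocultured library exceeded each lone one, on 65, 66 and 75 counts against 155, 140 and 137.

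The log2 fold change of Inhbb was 0.99 (SE 0.14, 95% interval 0.66 to 1.32, adjusted p = 0.000654), the only rise that passed among the 10 genes. Its fold of 1.99 lay just under the 2-fold line of the study's own threshold, and the interval from 1.58 to 2.49 held that line; without the cocultured replicate 3 the log2 fold change was 1.03, past the line. Per length, Inhba stayed far above Inhbb: the ratio of their FPKM was 131.6, 123.8 and 99.9 in the libraries alone and 58.0, 54.0 and 56.6 in coculture. Inhbb thus made up 0.849% ± 0.126 of the summed FPKM of both subunits alone and 1.75% ± 0.0632 in coculture (SD, n = 3).

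**Figure D3:**
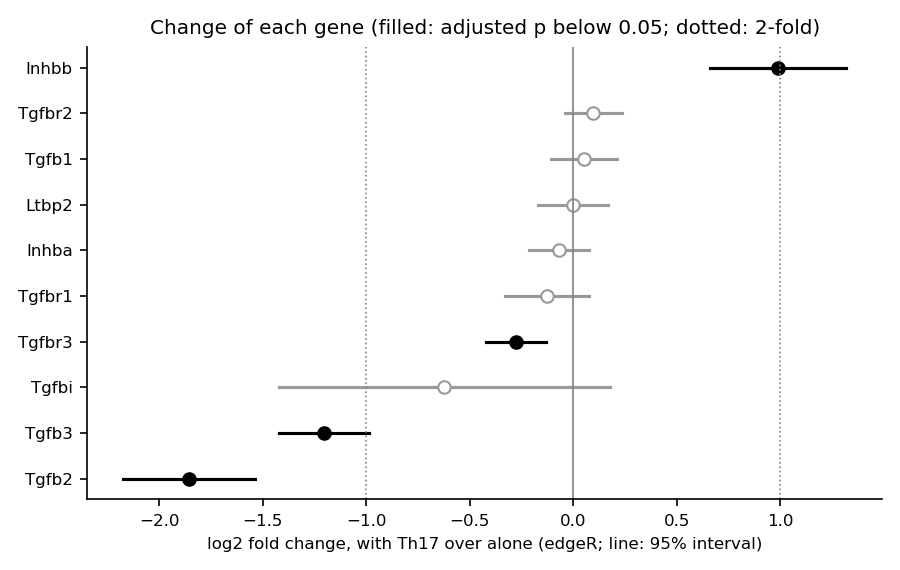
Log2 fold change of each of the 10 genes (x axis, cocultured over alone, edgeR) with its 95% interval. Filled black points had an adjusted p below 0.05 and open grey ones did not; dotted lines mark a 2-fold change, which Tgfb2 (-1.85) and Tgfb3 (-1.20) passed, Inhbb (0.99) met almost exactly and Tgfbr3 (-0.28) did not reach.

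Of the receptors, only Tgfbr3 passed the test. Tgfbr3 (ENSMUSG00000029287, chr5:107106570-107289629, minus strand) encodes betaglycan, a co-receptor with a short cytoplasmic tail that presents TGF-β2 in particular to TGFBR2 and also binds inhibin. It measured 164.0, 171.6 and 156.4 CPM alone and 138.6, 129.7 and 138.3 CPM in coculture, with no overlap between the groups. Its log2 fold change was -0.28 (SE 0.06, 95% interval -0.42 to -0.13, adjusted p = 0.00823), a small difference that cleared the test through low spread. Gm43422 shares an exon with it on the same strand and held 2 to 9 counts per library, against 1651 to 2173 for Tgfbr3.

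The signalling receptors did not pass the test. Tgfbr2 (ENSMUSG00000032440, chr9:116087698-116175363, minus strand), the ligand-binding type II receptor kinase, measured 139.5, 136.0 and 140.4 CPM alone and 150.2, 154.3 and 140.6 CPM in coculture. The groups touched but did not cross, since the highest library alone and the lowest cocultured one were nearly equal, and the log2 fold change was 0.10 (SE 0.06, 95% interval -0.04 to 0.24, adjusted p = 0.247). Counting it, 5 of the 10 genes had groups that did not overlap, beside 50.4% of all genes tested, which is again the background share. Tgfbr1 (ENSMUSG00000007613, chr4:47353222-47414931, plus strand), the type I receptor kinase, measured 90.4, 84.1 and 83.4 CPM alone and 77.7, 70.4 and 88.1 CPM in coculture. Here the cocultured replicate 3 lay inside the range of the lone libraries, and the log2 fold change was -0.13 (SE 0.09, 95% interval -0.33 to 0.08, adjusted p = 0.303).

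The matrix members showed no tested difference. Ltbp2 (ENSMUSG00000002020, chr12:84783212-84876532, minus strand) encodes a latent TGF-β binding protein that, unlike its relatives, is not known to bind the latent TGF-β complex and works in elastic fibre assembly. It measured 1146, 1271 and 1162 CPM alone and 1220, 1277 and 1081 CPM with Th17 cells, with full overlap. The log2 fold change was -0.00 (SE 0.07, adjusted p = 0.993), its sign turned under other scalings, and its 95% interval of -0.17 to 0.17 was narrow. D030025P21Rik overlaps it on the opposite strand within an exon and held 108 to 242 counts, against 13742 to 16412 for Ltbp2.

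Tgfbi (ENSMUSG00000035493, chr13:56609603-56639339, plus strand) encodes a secreted adhesion protein named for its induction by TGF-β. It was barely present, with 19, 26 and 18 counts alone and 21, 13 and 9 in coculture, or 1.47, 2.05 and 1.52 CPM against 1.56, 1.02 and 0.685 CPM. All libraries lay above the floor of 3 counts, and the groups overlapped. The log2 fold change was -0.62 with an SE of 0.35 and a 95% interval of -1.42 to 0.18 (adjusted p = 0.202), and the interval held both no change and a fall as large as that of Tgfb3, so no difference was detectable at this depth.

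**Figure D4:**
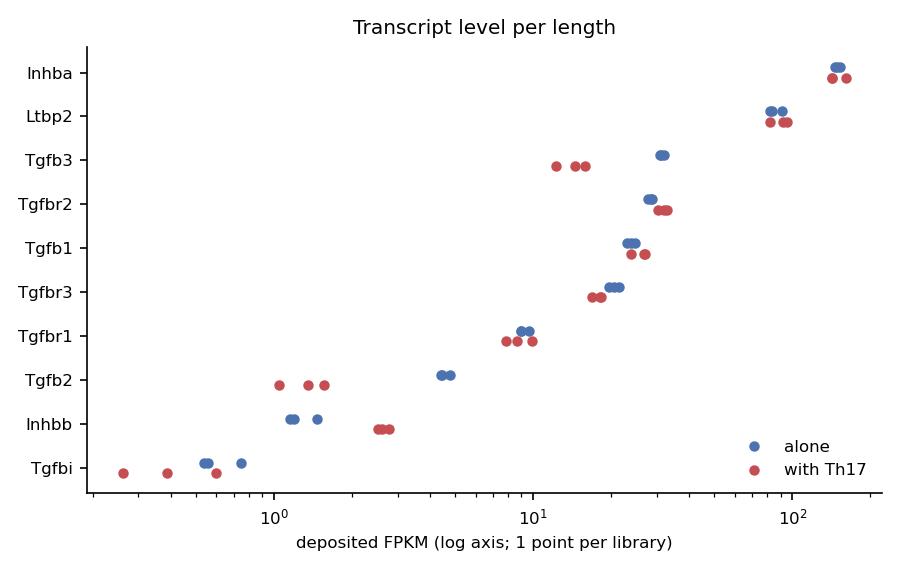
Deposited FPKM of the 10 genes (x axis, log scale), 1 point per library, alone in blue and with Th17 cells in red, ordered by the mean alone. Inhba and Ltbp2 were highest in both groups and Tgfbi lowest; Tgfb3 (31.3 alone, 14.2 in coculture) and Tgfb2 (4.56 and 1.32) show the widest gaps between the colours.

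Set side by side per length, the genes spanned from 0.415 to 148.9 FPKM in group means, and their order depends on the lengths used in the deposited FPKM. In the fibroblasts alone the order of mean FPKM was Inhba (148.9), Ltbp2 (85.7), Tgfb3 (31.3), Tgfbr2 (28.3), Tgfb1 (23.9), Tgfbr3 (20.5), Tgfbr1 (9.21), Tgfb2 (4.56), Inhbb (1.27) and Tgfbi (0.615). In coculture Tgfb3 dropped from the third to the sixth place with 14.2 FPKM, below Tgfbr2 (31.7), Tgfb1 (25.9) and Tgfbr3 (17.7), and Inhbb (2.64) stood above Tgfb2 (1.32). No neighbours in either order had overlapping ranges over their 3 libraries. The activin βA transcript was thus the most abundant of the 10 in every library, with 6.24 ± 0.36 times the FPKM of Tgfb1 alone and 5.74 ± 0.441 times in coculture.

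Among 12 genes of TGF-β latency and activation, 10 were tested, of which 3 rose, 6 fell and 1 was not called, beside 17.1% higher and 20.0% lower over all genes tested, with a median log2 fold change of -0.35. The latent TGF-β binding proteins that do bind the complex fell: Ltbp4 from 37.5 ± 0.814 to 17.9 ± 4.02 CPM (log2 fold change -1.07, SE 0.15, adjusted p = 0.000479), Ltbp1 by 0.53 (SE 0.08, adjusted p = 0.000908) and Ltbp3 by 0.42 on the log2 scale (SE 0.08, adjusted p = 0.0038). The intervals of Ltbp2 and of these genes were not compared by a test. Fbn1, the fibrillin of the microfibrils on which these complexes sit, fell from 1351 ± 32.5 to 836.8 ± 53.3 CPM (log2 fold change -0.69, adjusted p = 2.59e-05).

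On the activation side, Thbs1, whose product thrombospondin 1 can release TGF-β, rose from 14780 ± 168 to 21410 ± 1710 CPM (log2 fold change 0.53, SE 0.06, adjusted p = 0.000182), and Furin, a protease that cuts the TGF-β precursor, rose by 0.58 on the same scale (SE 0.07, adjusted p = 0.000131). Itgb8, a subunit of the TGF-β-activating integrin αvβ8, had 25, 32 and 23 counts alone and 2, 0 and 0 in coculture. It entered the test through its lone libraries only, is 1 of the 6 counted as lower, and was not tested when 10 counts were required in every library, which left 5 lower. Itgav, the αv subunit, was called higher (log2 fold change 1.09, SE 0.30, adjusted p = 0.0198), but its cocultured libraries measured 577.1, 524.9 and 207.4 CPM against 214.0, 196.4 and 202.6 CPM alone, and replicate 3 lay within the lone range. The call was lost when any 1 of the other 5 libraries was left out (adjusted p = 0.053 to 0.0727), and without the cocultured replicate 3 the log2 fold change was 1.43 (adjusted p = 1.63e-06).

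In the activin arm 7 of 14 genes were tested, of which 2 rose, 2 fell and 3 were not called (17.1% higher and 20.0% lower over all genes; median log2 fold change 0.03). Inhbc, Inhbe, Mstn, Nodal and Tdgf1 had 0 counts in all 6 libraries. Gdf11, a ligand that signals through activin receptors, rose from 23.9 ± 1.07 to 60.5 ± 3.10 CPM (log2 fold change 1.34, SE 0.08, adjusted p = 2.06e-06), a larger change than any of the 10 genes showed upwards. Acvr2a, a type II activin receptor, rose from 66.1 ± 3.53 to 102.8 ± 9.74 CPM (log2 fold change 0.64, SE 0.08, adjusted p = 0.00037), while the other type II gene, Acvr2b, had only 4 to 12 counts per library and was not tested. Acvr1b, the type I activin receptor, had a log2 fold change of 0.03 (SE 0.07, adjusted p = 0.792), with a sign that turned when the cocultured replicate 1 was left out.

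Both secreted activin antagonists fell. Fst, follistatin, went from 24.9 ± 2.39 to 16.9 ± 1.32 CPM (log2 fold change -0.56, SE 0.11, adjusted p = 0.004), and Fstl3, follistatin-like 3, from 140.5 ± 3.97 to 83.5 ± 7.37 CPM (log2 fold change -0.75, SE 0.08, adjusted p = 6.36e-05). Beside an Inhba level that did not pass the test, the ratio of Inhba to Fst FPKM was 14.4 ± 1.77 alone and 20.1 ± 2.02 in coculture (SD, n = 3). The proteins were not measured in these libraries.

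All 14 co-receptors and receptor regulators were tested, and 2 rose, 6 fell and 6 were not called, where 17.1% of all genes were higher and 20.0% lower (median log2 fold change -0.10). The 3 lowest values among those called belonged to Ldlrad4, Cd109 and Bambi. Ldlrad4, which keeps SMAD2 and SMAD3 from the receptor, fell from 33.0 ± 2.95 to 12.3 ± 1.73 CPM (log2 fold change -1.42, adjusted p = 2.91e-05), Cd109, a TGF-β co-receptor that dampens signalling, fell by 1.13 on the log2 scale (adjusted p = 7.65e-05), and Bambi, a decoy type I receptor, fell by 0.92 (adjusted p = 0.00335). Usp15, which removes ubiquitin from TGFBR1, rose by 0.31 (adjusted p = 0.00754), and Zfyve9, which brings SMAD2 and SMAD3 to the receptor, by 0.29 (adjusted p = 0.0265), a call lost under 4 of 13 alternatives, among them that without the cocultured replicate 3 (0.25, adjusted p = 0.0565).

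Of 11 Smads and corepressors 10 were tested, with 3 higher, 1 lower and 6 not called (median log2 fold change 0.04), a share called near the 37.1% of all genes. Smad7, the inhibitory Smad that TGF-β itself induces, rose from 67.6 ± 1.59 to 107.1 ± 17.6 CPM (log2 fold change 0.66, SE 0.11, adjusted p = 0.00142). The receptor-regulated Smads were called in opposite directions: Smad3 fell from 132.1 ± 3.03 to 101.8 ± 11.2 CPM (log2 fold change -0.38, SE 0.08, adjusted p = 0.00675), and Smad2 rose by 0.24 (adjusted p = 0.0374), a call lost under 8 of 13 alternatives, among them that without the cocultured replicate 3 (0.23, adjusted p = 0.0566). Skil, a corepressor of Smad-driven transcription, rose by 0.27 (adjusted p = 0.036), which was lost under 7 of 13, without that library too (0.22, adjusted p = 0.0774). Smad4, the common partner, had a log2 fold change of 0.01 (SE 0.09, adjusted p = 0.934), with a sign that turned in 3 of 13 alternatives.

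Of 20 genes known to be induced by TGF-β, all tested, 1 rose, 14 fell and 5 were not called, beside 17.1% higher and 20.0% lower over all genes tested, and the median log2 fold change was -0.67. Of these, 6 fell by more than 2-fold, beside 7.78% of all genes tested. Itga11, a collagen-binding integrin subunit, fell from 134.9 ± 1.74 to 18.4 ± 1.90 CPM (log2 fold change -2.88, adjusted p = 4.56e-08), Col3a1 by 2.18 (adjusted p = 1.37e-07) and Col1a2 by 1.43 (adjusted p = 1.37e-07). Ctgf (now Ccn2), a common readout of the pathway, had 3812 ± 73.4 and 3690 ± 252 CPM (log2 fold change -0.05, SE 0.06, adjusted p = 0.58, sign turned with scaling by library size only, with limma on FPKM and without the cocultured replicate 3). Lox, a collagen crosslinking enzyme, was the gene of this list that rose, from 4974 ± 217 to 8993 ± 373 CPM (log2 fold change 0.85, adjusted p = 3.73e-06). The list was chosen with earlier results of these data known, so its counts describe these genes and are no independent test. Smad7, named above as induced by TGF-β, is in another list and rose (log2 fold change 0.66). The genes in the target list answer to other signals too, and their link to the ligand levels was not tested. Of the genes named from the lists, Ltbp3, Fbn1, Itgav, Thbs1, Furin, Acvr2a, Fst, Fstl3, Zfyve9, Usp15, Lox and Ctgf share exon sequence with a gene on the opposite strand, and Col3a1 and Usp15 with one on their own strand, and since the use of strand in counting is not stated, reads of such pairs cannot be told apart.

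**Figure D5:**
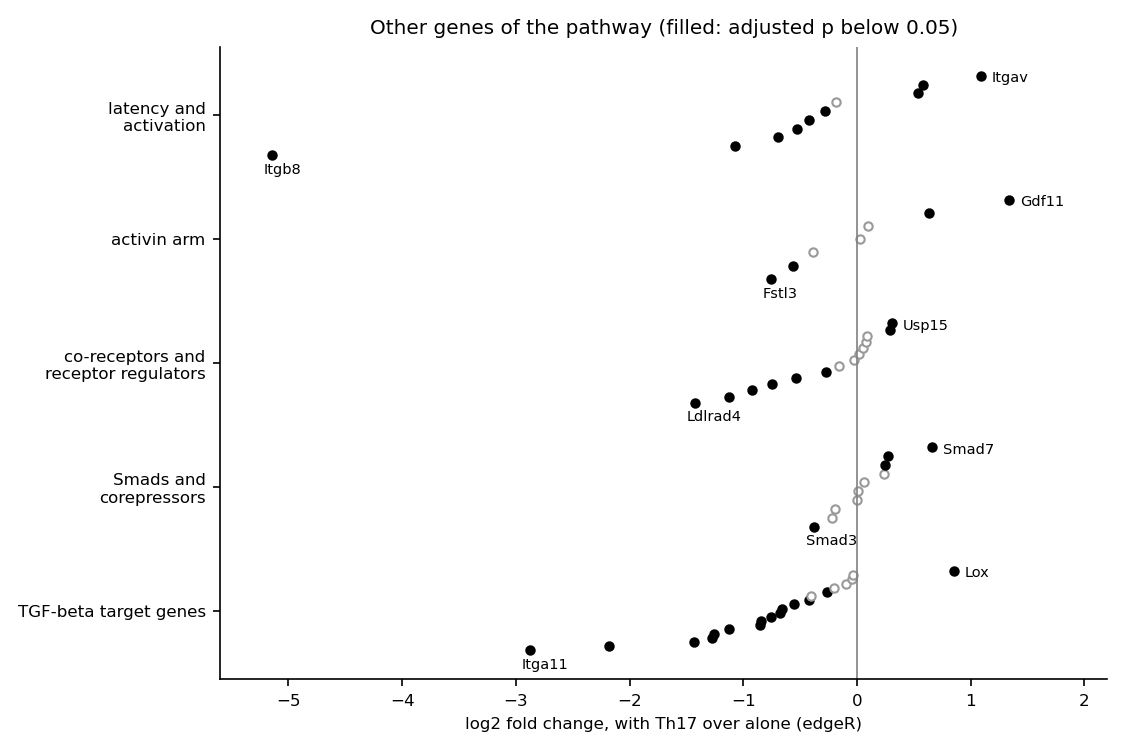
Log2 fold change (x axis, cocultured over alone, edgeR) of each tested gene in the 5 lists of other pathway genes, 1 point per gene, with the lowest and the highest of each list named. Filled points had an adjusted p below 0.05; in the list of TGF-β target genes 14 of 20 points are filled to the left of 0 and 1, Lox, to the right; the place of Itgb8 rests on coculture counts at or near 0.

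The summed level of 10 fibroblast markers was 29700 to 31600 CPM per library alone and 13400 to 14900 in coculture. Of the 9 tested, 8 were lower and Dcn was higher, beside 20.0% lower and 17.1% higher over all genes tested. Col1a1 and Col1a2 carried the difference in the sum (26400 to 28300 CPM alone and 10100 to 11400 in coculture), and the other 8 markers summed to 3300 to 3460 and 3350 to 3530 CPM. Among these 8, Dcn rose from 504.5 ± 3.06 to 1427 ± 50.4 CPM, while Vim fell from 2048 ± 81.9 to 1425 ± 14.9 CPM. The others tested among them were lower too, so the level sum hides opposite changes. The sum of 6 smooth muscle and pericyte markers was 1840 to 1930 CPM and 715 to 845 CPM. Des by itself made up 1270 to 1360 and 295 to 328 CPM of it, and the other 5 markers 570 to 575 and 420 to 517 CPM. All 6 were tested and 5 were lower, beside 20.0% of all genes tested. Rgs5, 1 of those lower, had 5, 7 and 1 counts in coculture and entered the test through its lone libraries only. The collagens Col1a1 and Col1a2 are both fibroblast markers and TGF-β target genes here. A low macrophage signal, 59.0 to 63.0 CPM over 12 markers alone and 19.9 to 21.1 in coculture, was lower as well. Lyz2 made up the largest part of this difference (27.6 ± 0.944 CPM alone and 3.33 ± 0.392 in coculture). Of the 6 markers tested 5 were lower (20.0% of all genes tested), and Cd14 was not called (11.17 CPM in both groups). Adgre1 and Ptprc, both among the 5, were at 0 in the cocultured libraries and entered the test through their lone libraries only. Csf1r kept 19 to 30 counts in coculture and Cd68 50 to 58. T cell markers summed to 5.82 to 8.69 CPM alone and 4.79 to 5.58 CPM in coculture, with Cd3d, Cd8a, Cd2, Il17a, Il17f and Ccr6 at 0 in all 6 libraries. Of the 2 tested, Lck was lower (4.72 ± 0.818 and 2.29 ± 0.481 CPM) and Trac was not called (2.64 ± 0.944 and 2.69 ± 0.496 CPM). Endothelial markers summed to 6.79 to 8.03 CPM alone and 2.05 to 3.06 CPM in coculture, and epithelial markers to 6.51 to 8.06 CPM and 5.58 to 6.05 CPM. Kdr carried the endothelial difference (5.55 ± 0.437 CPM alone and 0.127 ± 0.0415 in coculture). It had 1 to 2 counts per cocultured library and entered the test through its lone libraries only. Pecam1, the other endothelial marker tested, was not called (1.24 ± 0.523 and 1.32 ± 0.157 CPM). Among the 3 epithelial markers tested, Lrp2 was lower (3.03 ± 0.76 and 0.582 ± 0.262 CPM, on 4 to 11 counts in coculture). Aqp1 (2.96 ± 0.241 and 4.25 ± 0.308 CPM) and Krt18 were not called. The part of these cell types in the values of the ligands, receptors and target genes was not tested.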

How the data were processed

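RNA of 6 fibroblast libraries was sequenced on an Illumina instrument. The authors filtered reads with Seqtk and aligned them to mm10 (GRCm38) with HISAT2 2.0.4; StringTie 1.3.3b and edgeR are also named in the submitters' processing notes. The deposited table gives raw read counts and, beside them, the authors' FPKM, with no stated use of strand or of reads with several matches. Counts of 34745 genes, 13088 of them kept by filterByExpr (minimum count 10), were scaled by TMM and tested with edgeR 4.0.16 (R 4.3.3, glmQLFTest, no covariates), and FPKM served only for levels between genes, ligand shares and an alternative limma 3.58.1 test on log2(FPKM + 1). DESeq2 1.42.0 was another alternative. Gene coordinates are those of the deposited table, and for Tgfb3, Inhba, Tgfbr2 and Tgfbi they differ in start or end from GENCODE M21. Overlaps came from GENCODE M21. Tested on simulated data for this comparison, the edgeR step recovered 97.9% of 195 altered genes among 12960 and called 7 unaltered ones. The simulation gave every gene the common dispersion and altered genes by at least 2-fold. It therefore does not cover smaller changes, genes with more spread, or the larger share of genes called in the real libraries. The common dispersion corresponded to a coefficient of variation of 11.6%. Replicate numbers showed no pairing of the libraries (correlations of same-numbered deviations -0.026 to 0.016), and the labels state none. The 10 genes, the pathway and marker lists were chosen with earlier results of these data known; all 10 genes are named, and of each list the 3 highest and 3 lowest called genes plus direct partners of the 10, of which 1 is not reported here.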

Additional observations from a re-analysis of the deposited data

How the results depend on the processing

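Under all 13 alternatives (DESeq2, relative log expression factors, library size only, no filter, limma on log2(FPKM + 1), at least 10 counts in every library, the replicate block, and each library left out) the 10 genes gave 1 called higher and 3 called lower. Tgfb2 ranged from -1.99 to -1.27, Tgfb3 from -1.29 to -1.09, Inhbb from 0.68 to 1.09 and Tgfbr3 from -0.31 to -0.20 (adjusted p at most 0.0469), the smaller values of Tgfb2 and Inhbb coming from log2(FPKM + 1), which understates low genes. Inhbb passed 2-fold with library size only (1.05), without the replicate 3 alone (1.09) and without the cocultured replicate 3 (1.03), which makes the genes past 2-fold 3 in place of 2. Tgfbi (-0.98 to -0.19) was not tested with at least 10 counts in every library. Scaling by library size only gave 2916 genes higher and 2280 lower, and limma 2841 and 2249, in place of 2244 and 2612, with medians of 0.07 and 0.05 over all genes.

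With the replicate number as a block, 2053 genes were higher and 2460 lower, the 10 genes kept 1 higher and 3 lower, and Smad2 (0.24, adjusted p = 0.0771) was lost. The same-numbered libraries showed no pairing, which 3 libraries per group cannot exclude. Leaving out 1 library each, the co-receptors gave 1 to 2 higher and the Smads 1 to 4 higher (1 with DESeq2).

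Ltbp2 was 9e-04 with DESeq2 and with relative log expression factors, 0.0619 with library size only, 8e-04 with no filter, 0.0034 with at least 10 counts, 0.0598 with limma and -0.0516 to 0.0671 with a library left out (0.049 without replicate 2 alone). Ctgf was 0.0161 with library size only, 0.0143 with limma and 0.009 without the cocultured replicate 3 (-0.0858 to 0.009 with a library left out). Smad4 was -0.071 without replicate 2 alone and -0.0017 and -0.0077 without the cocultured replicates 1 and 2 (-0.071 to 0.0651 with a library left out), and Acvr1b -0.0137 without the cocultured replicate 1 (-0.0137 to 0.0534). The cause was not tested. In the ligand shares, leaving out 1 library gave 21.8 to 23.6 points for Tgfb1, -4.69 to -4.20 for Tgfb2 and -19.2 to -17.5 for Tgfb3. Depth limits Tgfbi and Itgb8 most, and intervals cover these libraries only.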
